A study of Homo sapiens with 6 samples.

Results

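The transcriptome of DU145 cells after SPOP knockdown is described here from 3 RNA-Seq libraries of the 6 in the series. DU145 is a prostate carcinoma line that was established from a brain metastasis. One library (NC, here the control) came from cells given a control siRNA, 1 from cells given SPOP siRNA 1 (si1) and 1 from cells given SPOP siRNA 2 (si2). The other 3 libraries are the same arms in 769-P, a renal cell adenocarcinoma line, and were used for comparison only. Both siRNA libraries were read as replicates of the knockdown (n = 2), and the control has 1 library, so every DU145 fold change rests on that library and carries no replicate check on the control side. The sample labels give no dose, time or siRNA sequence, and the knockdown was made in 1 line by transient transfection. The libraries hold RNA of whole cultures, in which fewer cells of a kind and less RNA per cell cannot be told apart.

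SPOP is the adaptor that holds substrates to a ubiquitin ligase built on the scaffold CUL3 and the RING protein RBX1. The ligase tags its substrates, among them cyclin E1, BET bromodomain proteins and steroid receptor coactivators, for degradation or relocation, and missense mutations in its substrate-binding cleft recur in prostate cancer. It acts on proteins, so RNA-Seq reads the transcripts that lie downstream of it and not the stability of a substrate.

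The authors deposited FPKM values, which count fragments per length of transcript and scale them to the mapped fragments of the library. Small RNA genes were left out, and of 24551 symbols 8664 (35.3%) reached 5 FPKM in at least 1 DU145 library and were described. Just under that minimum lay RPS6KB1 at 4.9991 FPKM in its highest library, and just over it BOD1L1 at 5.0008 FPKM. Fold changes were taken on log2(FPKM + 1), which understates the change of genes with low values. A gene is said to have risen or fallen when both siRNAs moved it at least 1.5-fold the same way. This is a rule of size with no p-value, since 1 control against 2 siRNA libraries cannot give an exact permutation p below 0.333 in a two-sided test.

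The cultures carried the epithelial markers of DU145. The keratin KRT8 had 559 FPKM in the control, 472 with si1 and 586 with si2, and EPCAM had 34.3, 27.6 and 36.2 FPKM. The defining genes of secretory luminal cells of the prostate were at or near 0, with KLK3 at most 0.311 FPKM and TMPRSS2 listed at 0 in all 3 libraries. Of 12 luminal markers 3 reached 5 FPKM, STEAP1 and SLC45A3 among them. Of 10 leukocyte markers CD68 alone passed that minimum, and none of the 8 fibroblast or 7 endothelial markers did.

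The control library stood apart from both siRNA libraries in 2 ways. Of 366 olfactory receptor genes, read here as a gauge of low background values, 287 were above 0 in the control against 5 and 4 in the siRNA libraries. This was not particular to the DU145 control, since the si2 library of 769-P had 237 above 0. The 769-P control had 4 and its si1 library 3. The steps between low values put the depth of si1 at 0.586 and of si2 at 0.578 of the control; the number of reads is unknown. The median log2 change of all 8664 genes was 0.10 with si1 and 0.16 with si2, and gene changes are to be read against that shift. The share of genes that rose climbed from 1.32% in the 10% of genes with the lowest GC content (median 38.7%) to 7.70% in the 10% with the highest (64.8%), over the 8306 genes with a GC value. The part of background, depth and GC content in single results was not tested beyond the corrected values given beside them.

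SPOP itself fell to 17.2% of the control with si1 and 18.4% with si2. It lies on chromosome 17 of GRCh37, from 47676246 to 47755525, and had 16.1 FPKM in the control, 2.77 with si1 and 2.96 with si2. The control lay far above both siRNA libraries, which nearly coincided. Its log2 change was -2.15 with a standard error of 0.30 in limma, a linear model that shares the spread across all genes, and the adjusted p was 0.309. With the siRNA number as a block shared by both cell lines the adjusted p from limma was 0.00312.

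By the 1.5-fold rule 458 genes rose (5.29% of those described) and 60 fell (0.693%). At 2-fold 60 rose (0.693%) and 11 fell (0.127%). The split of 88.4% upward calls was tied to scale. With each siRNA centred on its own median 242 rose (2.79%) and 144 fell (1.66%), so 62.7% were upward, and with the GC trend removed 213 rose (2.46%) and 142 fell (1.64%), so 60.0% were upward. All 213 of those rises and 59 of the falls were already in the uncorrected lists. The genes that rose had a median control level of 9.0 FPKM and those that fell 13.3, against 14.8 for all genes. Of the 458 rises 134 started under 5 FPKM in the control and entered the description through the siRNA libraries alone, which fixed their direction. Of the 60 falls 23 ended under 5 FPKM with both siRNAs and entered through the control alone, which likewise fixed their direction. Genes of either kind are pointed out below, and no p-value under 0.05 is given for them in DU145 apart from that of SPOP, the targeted gene.

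The rule asked for agreement of the siRNAs, which differed on many other genes. Taken alone, si1 moved 1139 genes up and 589 down by 1.5-fold, and si2 moved 1051 up and 229 down. The libraries of the siRNAs differed from each other by 1.5-fold at 1538 genes. With si1 up and si2 down there were 10 genes, and 20 showed the reverse. PTGES, the prostaglandin E synthase, had 53.1 FPKM in the control, 179 with si1 and 25.1 with si2. CLDN11, a tight junction claudin, ran the other way with 7.77, 2.73 and 28.0 FPKM.

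**Figure D1:**
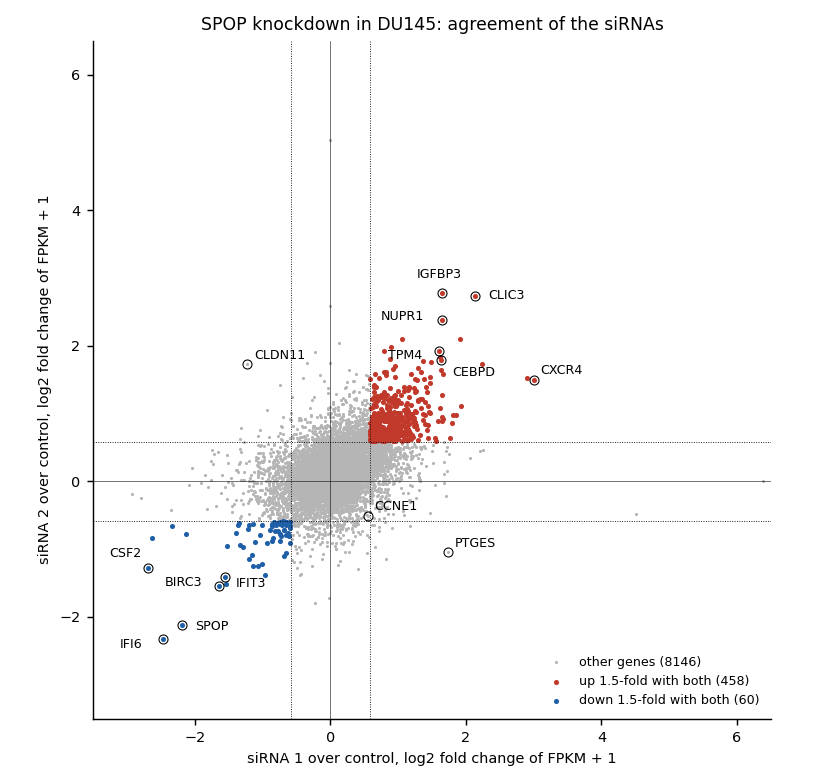
Log2 fold change over the control of FPKM + 1 with si1 (horizontal) and si2 (vertical) for the 8664 DU145 genes, 1 point per gene. Dotted lines mark 1.5-fold, red points the 458 genes that rose with both siRNAs and blue points the 60 that fell, both axes use the same control library, and PTGES, CLDN11 and CCNE1 lie off the diagonal.

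In limma 0 genes passed an adjusted p of 0.05 in DU145, with 578 genes at an unadjusted p under 0.05, and the smallest adjusted p was 0.116 for IFI6. With the siRNA number as a block, which leaves 1 residual degree of freedom, 90 genes passed upward (1.04%) and 21 downward (0.242%), and 88 and 16 of these were also called by the 1.5-fold rule. Adjusted p-values given from here on as blocked come from that limma fit, which assumes that each number marks the same siRNA in both lines.

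Beside SPOP, the deepest falls were those of IFI6, BIRC3 and HNRNPA1P33. IFI6, an interferon-induced mitochondrial protein on chromosome 1 (27992575 to 27998723, GRCh37), had 106 FPKM in the control, 18.2 with si1 and 20.3 with si2, a log2 change of -2.47 and -2.32. BIRC3, a ubiquitin ligase of the inhibitor-of-apoptosis family and an NF-kB target, had 13, 3.47 and 3.78 FPKM. CSF2, the cytokine GM-CSF, had 8.50, 0.480 and 2.93 FPKM, and here the siRNAs stood apart, with log2 changes of -2.68 and -1.28. The blocked adjusted p from limma was 2.35e-05 for IFI6. BIRC3 and CSF2 were above 5 FPKM in the control alone, so a fall was a condition of their being described, as it was for 9 of the 15 largest falls.

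The other large falls were of varied function. SUMF1, the enzyme that activates sulfatases, had 14.4 FPKM in the control, 5.69 with si1 and 5.95 with si2. ATP6V0B, a membrane subunit of the vacuolar proton pump, had 106, 36.3 and 54.5 FPKM. CSGALNACT2, which starts chondroitin sulfate chains, had 8.70, 3.34 and 3.57 FPKM. All 3 were lower with either siRNA. The blocked limma adjusted p was 0.0366 for SUMF1 and 0.0219 for ATP6V0B, and CSGALNACT2 was above 5 FPKM in the control alone and did not pass (0.107). The cytokine IL32 had 23.3, 10.0 and 9.26 FPKM, and RBMS1, an RNA-binding protein, had 12.1, 4.36 and 5.66, with blocked limma adjusted p-values of 0.0230 and 0.0271. HNRNPA1P33 is a pseudogene of HNRNPA1, so its 6.35, 1.53 and 1.56 FPKM may hold fragments of the parent gene. IQCH-AS1 and TMEM170A completed the list with the interferon genes described below, and these 2 and HNRNPA1P33 were likewise above 5 FPKM in the control alone. All 15 largest falls kept their call after the GC trend was removed, as did 59 of all 60 falls. For the 15 this was fixed by their size, at least 0.937 on the log2 scale with both siRNAs. The median log2 change in any 10% of genes by GC content lay between -0.06 and 0.21.

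The largest rises began with genes that were low in the control. CLIC3, a chloride channel family protein, had 0.272 FPKM in the control, 4.60 with si1 and 7.48 with si2. VSTM2L, a secreted antagonist of the peptide humanin, had 2.82, 13.3 and 15.4 FPKM. CEMIP, a hyaluronan-degrading protein, had 0.820, 7.54 and 5.02 FPKM. These were among the 9 of the 15 largest rises with a control under 5 FPKM, so an upward change was a condition of their being described. PSPN, a ligand of the GDNF family, was listed at 0 in the control and had 6.5 and 1.89 FPKM. The long noncoding RNA LUCAT1 had 3.66, 13.8 and 12.9 FPKM.

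The other 6, with HIST1H2BC given among the histones below, were above 5 FPKM in the control. CEBPD, a C/EBP transcription factor on chromosome 8 (48649475 to 48650726, GRCh37), rose from 28.5 FPKM to 90.5 with si1 and 101 with si2. TPM4, a tropomyosin of the actin cytoskeleton on chromosome 19 (16177831 to 16213812), rose from 54.6 to 167 and 209 FPKM. F13A1, the catalytic subunit of clotting factor XIII, rose from 14.1 to 45.7 and 46.3 FPKM. For all 3 the gap between siRNAs was small beside the rise, and the blocked limma adjusted p was 0.00312, 0.00462 and 0.0101. HABP4, a hyaluronan- and RNA-binding protein, rose from 8.35 to 25.0 and 26.3 FPKM, and CALB2, the calcium-binding protein calretinin, from 8.17 to 24.5 and 24. All 15 largest rises kept their call after the GC trend was removed. This too was fixed by their size, at least 1.448 on the log2 scale with both siRNAs. The 6 with a control above 5 FPKM passed the blocked limma test.

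Among abundant transcripts, 842 genes reached 100 FPKM in a DU145 library, of which 38 rose and 8 fell. These shares are near the 5.29% and 0.693% of all genes. TGM2, tissue transglutaminase, rose from 222 FPKM to 404 with si1 and 373 with si2. MT2A, a metallothionein and the most abundant gene to fall, went from 1669 to 996 and 911 FPKM. TGM2 and MT2A were picked here for their level after the values were seen.

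**Figure D2:**
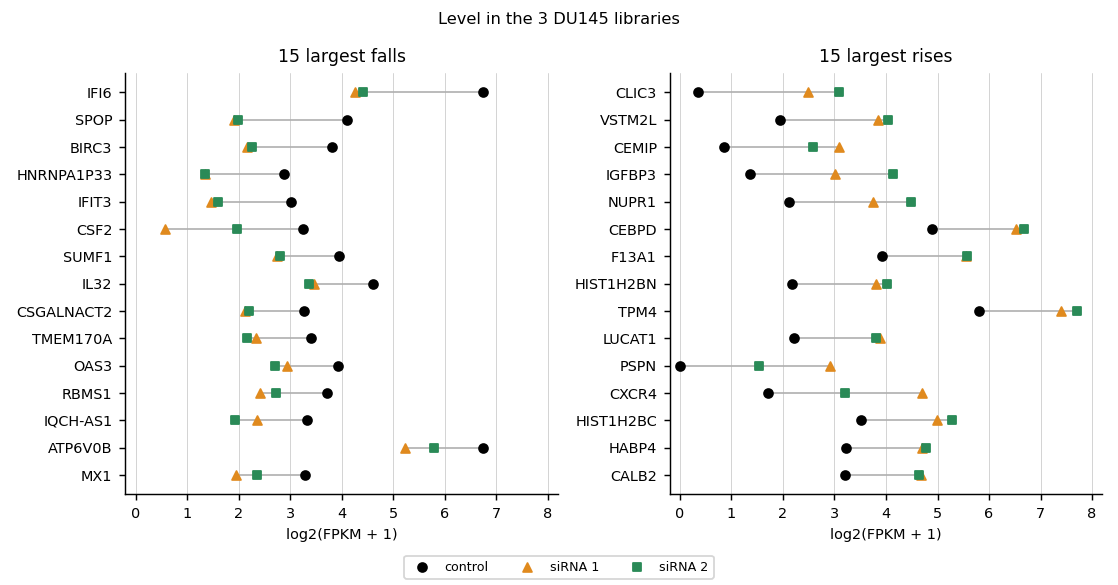
Level of the 15 genes with the largest falls (left) and the 15 with the largest rises (right) in the 3 DU145 libraries, on log2(FPKM + 1), with circles for the control, triangles for si1 and squares for si2. Genes are ordered by the smaller of the 2 siRNA changes; CSF2, PSPN and CXCR4 show the widest gaps between siRNAs.

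Some interferon-stimulated genes fell in DU145 after SPOP knockdown. Type I interferons act through the factor ISGF3, which binds the interferon-stimulated response element (ISRE) in the promoters of antiviral genes. Its core, searched as GAAA, any 2 bases and GAAA, was looked for on both strands in RefSeq promoters of GRCh38.p14, from 250 bases before to 50 bases after the start. The promoters of 4 genes that fell are shown because each holds the core at least 2 times before the start. The 250 bases before the start are printed 5′ to 3′ on the strand of the gene, with the ISRE cores in capitals. IFI6 is chr1:27672193-27672442 on the minus strand, and the others lie on the plus strand, ISG15 at chr1:1013247-1013496, IFIT3 (the first of 2 promoters) at chr10:89327747-89327996 and OAS3 at chr12:112938224-112938473.
IFI6: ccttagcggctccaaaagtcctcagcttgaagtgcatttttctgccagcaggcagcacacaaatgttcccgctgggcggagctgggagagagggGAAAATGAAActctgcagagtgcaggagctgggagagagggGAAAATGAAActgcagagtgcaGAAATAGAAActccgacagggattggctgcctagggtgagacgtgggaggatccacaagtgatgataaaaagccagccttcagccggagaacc
ISG15: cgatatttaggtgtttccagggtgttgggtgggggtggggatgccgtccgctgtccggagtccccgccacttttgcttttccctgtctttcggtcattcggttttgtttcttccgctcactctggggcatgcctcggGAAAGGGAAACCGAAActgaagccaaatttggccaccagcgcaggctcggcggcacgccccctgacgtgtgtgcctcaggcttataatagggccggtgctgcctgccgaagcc
IFIT3: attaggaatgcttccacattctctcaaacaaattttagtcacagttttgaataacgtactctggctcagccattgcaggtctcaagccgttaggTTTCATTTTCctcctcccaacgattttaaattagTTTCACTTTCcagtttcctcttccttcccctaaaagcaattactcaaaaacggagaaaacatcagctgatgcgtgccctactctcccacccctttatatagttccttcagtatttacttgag
OAS3: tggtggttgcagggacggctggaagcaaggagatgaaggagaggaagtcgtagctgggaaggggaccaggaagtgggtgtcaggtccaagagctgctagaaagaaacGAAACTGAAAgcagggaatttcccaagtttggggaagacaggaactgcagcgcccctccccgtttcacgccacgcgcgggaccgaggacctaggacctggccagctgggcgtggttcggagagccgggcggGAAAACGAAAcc

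The cores began 156, 115 and 93 bases before the start of IFI6 and 143 and 12 bases before that of OAS3. In ISG15 the pair at 113 and 107 overlapped in 1 run of capitals, and in IFIT3 the cores, at 156 and 122, lay on the opposite strand. The core was present in 3.57% of all 35116 promoters of the table and in 3.37% of the 7132 described genes with a promoter there. It was present in 7 of 46 genes that fell (15.2%), in 11 of 368 that rose (2.99%) and in 9 of 12 described interferon effectors (75%). Of the 7 falls with the core, 5 are the interferon effectors given below, so their share mostly restates that list. IFIT3 and MX1 among them were above 5 FPKM in the control alone. A match describes letters and not the binding of a factor.

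Of 40 interferon effectors on the list 14 were described, and 5 of them fell (35.7%) while 0 rose, beside 0.693% and 5.29% of all genes. IFIT3 and MX1 were above 5 FPKM in the control alone, so a fall was a condition of their being described, and the other 3 that fell were IFI6, ISG15 and OAS3. The other 26 stayed under 5 FPKM in every DU145 library. The median log2 change of the 14 was -0.50 with si1 and -0.29 with si2. ISG15, the ubiquitin-like modifier conjugated to proteins in the antiviral response (chromosome 1, 936518 to 949920, GRCh37), had 117 FPKM in the control, 54.0 with si1 and 62.7 with si2. OAS3, an oligoadenylate synthetase that senses double-stranded RNA, had 14.3, 6.62 and 5.56 FPKM. IFIT3, which takes part in binding foreign RNA, had 7.07, 1.75 and 2.05 FPKM. In each the siRNA libraries lay together and well below the control, and the blocked limma adjusted p was 0.0384 for ISG15 and 0.0265 for OAS3. MX1, an antiviral GTPase, had 8.80, 2.88 and 4.12 FPKM. All 5 kept their calls after centring and after removal of the GC trend. Centring could not have removed them, since the medians of all genes are positive and it deepens every fall. Removal of the GC trend kept 59 of all 60 falls.

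The effectors did not move as 1 block. Of the 14, 10 were below the control with both siRNAs and 0 above it. IFITM2, which restricts viral entry, had 28.5, 26.7 and 42.6 FPKM, and IFI35 had 8.75, 6.15 and 13.6, so for both the siRNAs parted. LGALS3BP, a secreted glycoprotein, passed 1.5-fold with si1 alone, at 29.8, 14.1 and 25.2 FPKM, and USP18, which removes ISG15 from proteins, with si2 alone, at 17.7, 17.1 and 10.8. These 4 were chosen after their values were seen. Among 15 described factors of interferon signalling 2 fell, the transcription factor IRF1 (12.4, 7.11 and 6.67 FPKM) and the interferon gamma receptor IFNGR1 (9.91, 5.50 and 6.23 FPKM). They made up 13.3% of the list, beside 0.693% of all genes that fell, and neither passed the blocked limma test (adjusted p = 0.128 and 0.240). The most abundant signalling factors did not pass, with IRF3 at 44.6, 51.1 and 59.0 FPKM and the kinase TYK2 at 37.3, 53.3 and 43.5. Without si1 the median of the signalling factors turned from -0.15 to 0.01. Antigen presentation genes were not called, 0 of 10, and B2M, the light chain of class I molecules, had 403, 329 and 311 FPKM.

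NF-kB feedback genes fell in part. NF-kB dimers are held in the cytoplasm by IkB proteins and, once released, induce their own inhibitors and subunits. Of 16 described genes 4 fell (25.0%, beside 0.693% of all genes) and 0 rose, and the median was -0.22 with si1 and -0.19 with si2. NFKB2, the precursor of the p52 subunit, had 102 FPKM in the control, 39.2 with si1 and 64.6 with si2, with a blocked limma adjusted p of 0.0394. Its partner RELB had 28.6, 15.3 and 18.1 FPKM, and the inhibitor NFKBIE had 38.7, 24.2 and 22.0, and neither passed the blocked limma test (adjusted p = 0.112 and 0.179). With BIRC3, already given and above 5 FPKM in the control alone, these are members of the noncanonical and feedback arms. The canonical subunits did not pass, with RELA at 69.3, 79.2 and 59.4 FPKM and NFKB1 at 20.1, 17.3 and 18.3, both named after their values were seen. NFKBIA, the classical IkB alpha, had 179, 114 and 125 FPKM, and its log2 changes of -0.64 and -0.51 passed 1.5-fold with si1 only.

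Cytokines and their receptors moved singly. Of 18 described, CSF2 fell and CXCR4 rose, 5.56% each way, beside 0.693% of all genes that fell and 5.29% that rose. CXCR4, the receptor of the chemokine CXCL12 (chromosome 2, 136871919 to 136876747, GRCh37), had 2.27 FPKM in the control, 25.1 with si1 and 8.24 with si2. Each of these calls was fixed in direction by the 5 FPKM minimum. For CXCR4 the siRNAs differed from each other by about as much as the smaller rise. The most abundant cytokine, MIF, had 1207, 1194 and 1412 FPKM.

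**Figure D3:**
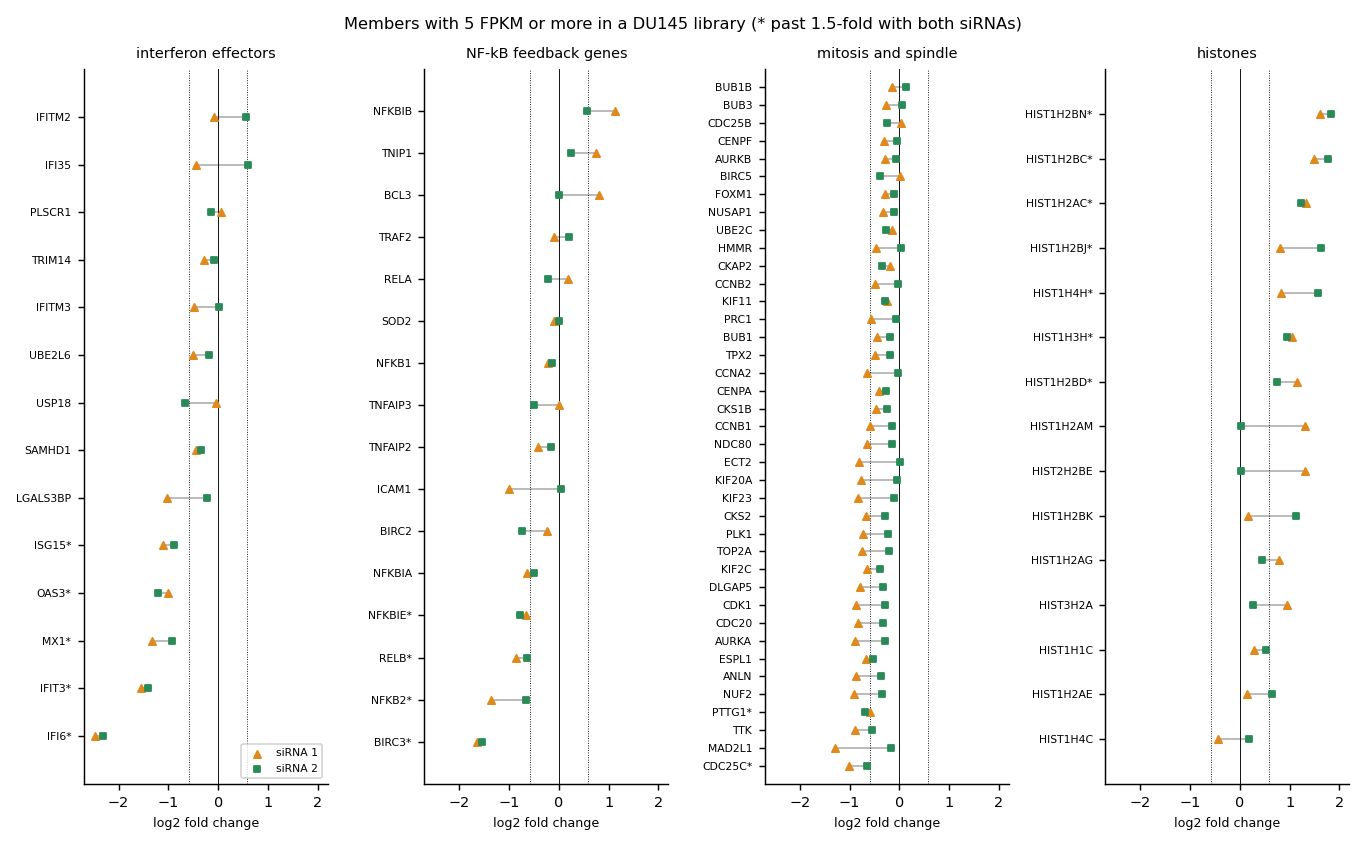
Log2 fold change over the control of FPKM + 1 for every described member of the interferon effectors, NF-kB feedback genes, mitosis genes and histones, with triangles for si1 and squares for si2. Stars mark members past 1.5-fold (dotted lines) with both siRNAs, which are 5 of 14, 4 of 16, 2 of 39 and 7 of 15.

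Few cell cycle genes passed 1.5-fold with both siRNAs, and si1 lowered more of them than si2. Of 39 described mitosis genes 2 fell and 0 rose, CDC25C, the phosphatase that activates CDK1 (6.59, 2.76 and 3.84 FPKM), and PTTG1, securin (76.2, 50.2 and 47.1 FPKM). That is 5.13% beside 0.693% of all genes, but CDC25C was above 5 FPKM in the control alone, and PTTG1 did not pass the blocked limma test (adjusted p = 0.202). Of the 39, 33 were below the control with both siRNAs, against 1639 of all 8664 genes. The median was -0.59 with si1 and -0.23 with si2. Taken alone, si1 lowered 20 of the 39 by 1.5-fold and si2 lowered 2, against 589 and 229 of all 8664 genes. CDC20, the activator of the anaphase-promoting complex and a reported SPOP substrate, had 177 FPKM in the control, 99.2 with si1 and 141 with si2. After centring, and likewise after GC removal, 4 mitosis genes fell. Both corrections lower most values, and the falls among all 8664 genes went from 60 to 144 (1.66%) and 142 (1.64%). Of 38 described replication genes none was called, and 3 fell after centring and 3 after GC removal, with the same downward shift. Thymidine kinase TK1 had 180, 122 and 161 FPKM.

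Regulators of the G1 phase gave 1 rise and 1 fall among 19, 5.26% each way, beside 5.29% of all genes that rose and 0.693% that fell. CCND1, cyclin D1 (chromosome 11, 69455924 to 69469242, GRCh37), had 193 FPKM in the control, 106 with si1 and 104 with si2, and its blocked limma adjusted p was 0.124. CDKN1C, the kinase inhibitor p57, had 2.34, 6.43 and 7.75 FPKM and was described through the siRNA libraries alone. CDKN1A, the kinase inhibitor p21, passed 1.5-fold with si2 only, at 70.6, 60.2 and 42.9 FPKM.

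Transcripts of SPOP substrates did not move together. None of the 22 described substrates was called, and their median log2 change was 0.02 beside 0.12 for all genes. CCNE1, cyclin E1, had 8.62 FPKM in the control, 13.1 with si1 and 5.77 with si2, so the siRNAs lay on opposite sides of the control. DEK, a chromatin protein, had 77.5, 59.5 and 73.7 FPKM. SETD2, a histone methyltransferase, had 6.11, 6.31 and 6.49 FPKM. ERG and DAXX were at most 0.132 and 0.143 FPKM in DU145 and were not described. The paper reports changes of both proteins in DU145 by western blot, so these near-0 values need not mean that the transcripts were absent. Among 28 genes of cullin-RING ligases SPOP was the only fall and COPS8 the only rise. Each is 3.57% of the list, beside 0.693% of all genes that fell and 5.29% that rose. COPS8, a subunit of the COP9 signalosome that removes NEDD8 from cullins, had 7.69, 13.6 and 12.3 FPKM. CUL3 had 9.30, 8.38 and 8.35 FPKM and RBX1 had 33.7, 34.4 and 29.6, so the partners of SPOP stayed within 1.5-fold.

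Histone genes had the largest share of rises among the lists. Of 33 replication-dependent histone genes on the list 15 were described, 7 rose (46.7%, beside 5.29% of all genes) and 0 fell, and 14 were above the control with both siRNAs. The median log2 change was 0.94 with si1 and 0.75 with si2. These genes are transcribed in S phase and their main transcripts end in a stem-loop without a poly(A) tail, so the libraries, which were made from polyadenylated RNA, hold the forms that carry one. HIST1H2AC had 36.8 FPKM in the control, 93.4 with si1 and 87.2 with si2. HIST1H2BC had 10.4, 30.9 and 37.7 FPKM, and HIST1H2BN had 3.53, 12.9 and 15.2. The blocked limma adjusted p was 0.0477 for HIST1H2AC and 0.00700 for HIST1H2BC. HIST1H2BD, HIST1H2BJ, HIST1H3H and HIST1H4H were the other 4, with controls of 3.20 to 13.1 FPKM and none past the blocked limma test (adjusted p from 0.0585 to 0.260). HIST1H2BN, HIST1H2BJ and HIST1H3H were under 5 FPKM in the control, so a rise was a condition of their being described. The most abundant, HIST1H2BK, differed between siRNAs, with 196, 221 and 431 FPKM. Copies of these genes are near-identical, and how fragments were split among them is not stated, so single members are uncertain. With the GC trend removed 6 of the 7 kept their call, HIST1H2BD being lost.

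Of 82 genes named as antisense RNAs 19 rose (23.2%, beside 5.29% of all genes), and 13 of the 19 were under 5 FPKM in the control. Counting is not stated to use strand, so fragments of such a gene and of its partner cannot be told apart.

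Amino acid response genes were mostly above the control, with few past 1.5-fold. ATF4 is the transcription factor that the integrated stress response translates to induce amino acid synthesis and transport. Of 27 described targets 2 rose (7.41%, near the 5.29% of all genes) and 0 fell, and 19 were above the control with both siRNAs, against 4085 of all 8664 genes, with medians of 0.49 for si1 and 0.27 for si2. NUPR1, a stress-induced chromatin protein (chromosome 16, 28544029 to 28550329, GRCh37), had 3.31 FPKM in the control, 12.5 with si1 and 21.5 with si2, and was described through the siRNA libraries alone. TRIB3, a pseudokinase that restrains ATF4, had 60.7, 111 and 107 FPKM and did not pass the blocked limma test (adjusted p = 0.101). ATF4 itself had 284, 362 and 337 FPKM, within 1.5-fold. DDIT4, an inhibitor of mTORC1, and ASNS, asparagine synthetase, named after their values were seen, passed 1.5-fold with si1 alone, at 58.9, 191 and 63.7 FPKM and at 50.3, 94.8 and 59.9. After centring NUPR1 and TRIB3 kept their calls and the cystine transporter SLC7A11, at 7.57, 4.03 and 4.73 FPKM and likewise named after its values were seen, was added as a fall. Centring lowers every value, and 144 of all 8664 genes (1.66%) fell after it. With the GC trend removed only NUPR1 was left as a rise.

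Of 22 described tRNA synthetase genes 2 rose, AARS for alanine (128, 213 and 199 FPKM) and SARS for serine (58.4, 89.8 and 91.4 FPKM), which is 9.09% beside 5.29% of all genes. Neither passed the blocked limma test (adjusted p = 0.197 and 0.228), and neither call was kept after centring or GC removal. Chaperones of the endoplasmic reticulum, 0 of 24, and heat shock chaperones, 0 of 17, were not called.

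Sterol synthesis separated the siRNAs. Sterol-responsive factors switch this pathway on as a unit when membrane cholesterol is low. None of the 33 described genes of cholesterol and fatty acid synthesis was called. Against the control si2 put 17 of them up and 0 down by 1.5-fold and si1 put 1 up and 4 down. Of all 8664 genes si2 put 1051 up and 229 down, and si1 put 1139 up and 589 down. In 31 of the 33 si2 lay above si1, against 4833 of all genes. Fatty acid desaturase FADS2 had 194 FPKM in the control, 152 with si1 and 355 with si2, and SCD, the stearoyl-CoA desaturase, had 245, 299 and 386. HMGCS1, which makes the precursor of mevalonate, had 25.4, 20.9 and 59.8 FPKM, and ACLY, which supplies cytosolic acetyl-CoA, had 144, 75.8 and 212, both named after their values were seen. With 1 library for each siRNA, the reagent and the library cannot be told apart.

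NRF2 targets and ERK feedback genes also separated the siRNAs. Of 25 described NRF2 antioxidant targets none was called, while si1 put 11 down by 1.5-fold and si2 put 5 up and 1 down. Of all 8664 genes si1 put 589 down and si2 put 1051 up and 229 down. The autophagy receptor SQSTM1 had 591, 346 and 497 FPKM and the ferritin light chain FTL had 1701, 1412 and 2621. ERK feedback genes had opposite medians, 0.36 with si1 and -0.16 with si2, with 6 of 17 up for si1 and 3 down for si2. Of all 8664 genes 1139 were up for si1 and 229 down for si2. DUSP5, a phosphatase of ERK, had 86.4, 114 and 56.9 FPKM.

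In the lists of lipoprotein and insulin-like growth factor genes every call was a rise. Of 11 described genes of cholesterol efflux and lipoproteins 2 rose (18.2%, beside 5.29% of all genes), the apolipoproteins APOE (9.33, 24.2 and 28.2 FPKM, blocked limma adjusted p = 0.0265) and APOC1 (13.6, 23.9 and 28.2 FPKM, 0.194), which are neighbours in 1 cluster. Of the 9 described genes of the insulin-like growth factor system 3 rose (33.3%) and 0 fell. IGFBP3, a binding protein that sequesters the growth factor (chromosome 7, 45951844 to 45961473, GRCh37), had 1.56 FPKM in the control, 7.04 with si1 and 16.6 with si2, and was described through the siRNA libraries alone. IGFBP4 had 44.3, 105 and 85.7 FPKM, and IRS2, an adaptor of the receptor, had 8.83, 17.6 and 13.9. Blocked limma adjusted p-values were 0.0320 for IGFBP4 and 0.118 for IRS2. With the GC trend removed IGFBP3, IGFBP4 and APOE kept their calls, and APOC1 and IRS2 did not.

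Metabolic and hypoxia genes gave few calls, with 1 rise in each list below, at shares of 5% to 5.88% beside 5.29% of all genes. PFKL, the liver form of phosphofructokinase, rose from 31.9 FPKM to 64.4 and 65.3, with a blocked limma adjusted p of 0.0445, as the only 1 of 17 described glycolysis enzymes. GAPDH had 2855, 1975 and 2736 FPKM. EPAS1, HIF-2 alpha, rose from 13.4 to 21.4 and 27.5 FPKM, the only call among 20 hypoxia genes. Its blocked limma adjusted p was 0.171, and the call was lost after centring. JUND, an AP-1 subunit, rose from 57.6 to 133 and 116 FPKM among 19 immediate early genes, with a blocked limma adjusted p of 0.0380.

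A few adhesion genes of epithelial cells rose. Of 28 described keratins and junction genes 3 rose (10.7%, beside 5.29% of all genes) and 0 fell. CDH1, E-cadherin, had 8.87 FPKM in the control, 15.9 with si1 and 17.7 with si2. CDH3, P-cadherin, had 35.9, 55.5 and 84.5 FPKM, and the connexin GJB2, described through 1 siRNA library alone, had 2.18, 5.53 and 4.33. None of the 3 passed the blocked limma test, with adjusted p-values of 0.258, 0.0814 and 0.321, and CDH3 lost its call after centring. Without si2 the median of this list turned from 0.14 to -0.01. None of 10 genes of the epithelial-mesenchymal transition was called, and VIM, vimentin, had 583, 635 and 541 FPKM.

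Genes of membrane traffic and the lysosome rose at shares near the 5.29% of all genes. Of 41 described Golgi and secretory genes 3 rose (7.32%), the tether GOLGA2 (12.5, 29.2 and 24.7 FPKM, blocked limma adjusted p = 0.0341) and the coat subunits COPG1 (36.6, 62.6 and 57.4 FPKM, 0.160) and SEC13 (50.4, 88.1 and 82.4 FPKM, 0.132). Of 35 lysosomal genes 2 rose (5.71%), the protease CTSB (105, 217 and 181 FPKM, blocked limma adjusted p = 0.0819) and the pump subunit ATP6V1G1 (40.4, 69.5 and 64.6 FPKM, 0.132), while ATP6V0B fell. BICD2, a dynein adaptor, rose from 8.59 to 18.2 and 23.2 FPKM (blocked limma adjusted p = 0.0223), with ACTR1B of the dynactin complex, at 14.5, 22.8 and 28.1 (0.107). MAP1LC3A, an LC3 protein of autophagosomes, had 3.90, 11.4 and 9.32 FPKM and was described through the siRNA libraries alone. With the GC trend removed GOLGA2, BICD2, MAP1LC3A and ATP6V0B kept their calls, and COPG1, SEC13, CTSB, ATP6V1G1 and ACTR1B lost theirs.

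Chromatin modifiers gave calls in both directions. Of 24 described genes the histone deacetylase HDAC1 (27.4, 48.8 and 44.7 FPKM) and the demethylase KDM2B (3.95, 9.84 and 6.92 FPKM) rose, and the Polycomb proteins CBX6 (25.8, 15.4 and 16.8 FPKM) and BCOR (6.52, 3.39 and 3.88 FPKM) fell. That is 8.33% each way, beside 5.29% of all genes that rose and 0.693% that fell. KDM2B was above 5 FPKM with the siRNAs alone and BCOR in the control alone, and none of the 4 passed the blocked limma test (adjusted p from 0.118 to 0.260). After centring, which deepens every fall here, the falls were kept and the rises were not.

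Genes of the basic machinery of the cell gave almost no calls. None of 75 cytosolic ribosomal protein genes, 38 proteasome genes, 42 splicing factors or 37 translation factors was called, and their medians over the mean of both siRNAs ran from -0.10 to 0.03. The siRNAs parted at the ribosomal proteins, with a median of -0.215 for si1 and 0.13 for si2. There si2 lay above si1 in 74 of the 75, against 4833 of all 8664 genes. Of 76 respiratory chain genes 1 rose and 0 fell. Actin, ACTB, had 2106, 2613 and 2610 FPKM. Over all 45 lists with a described gene 17 held at least 2 called members.

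**Figure D4:**
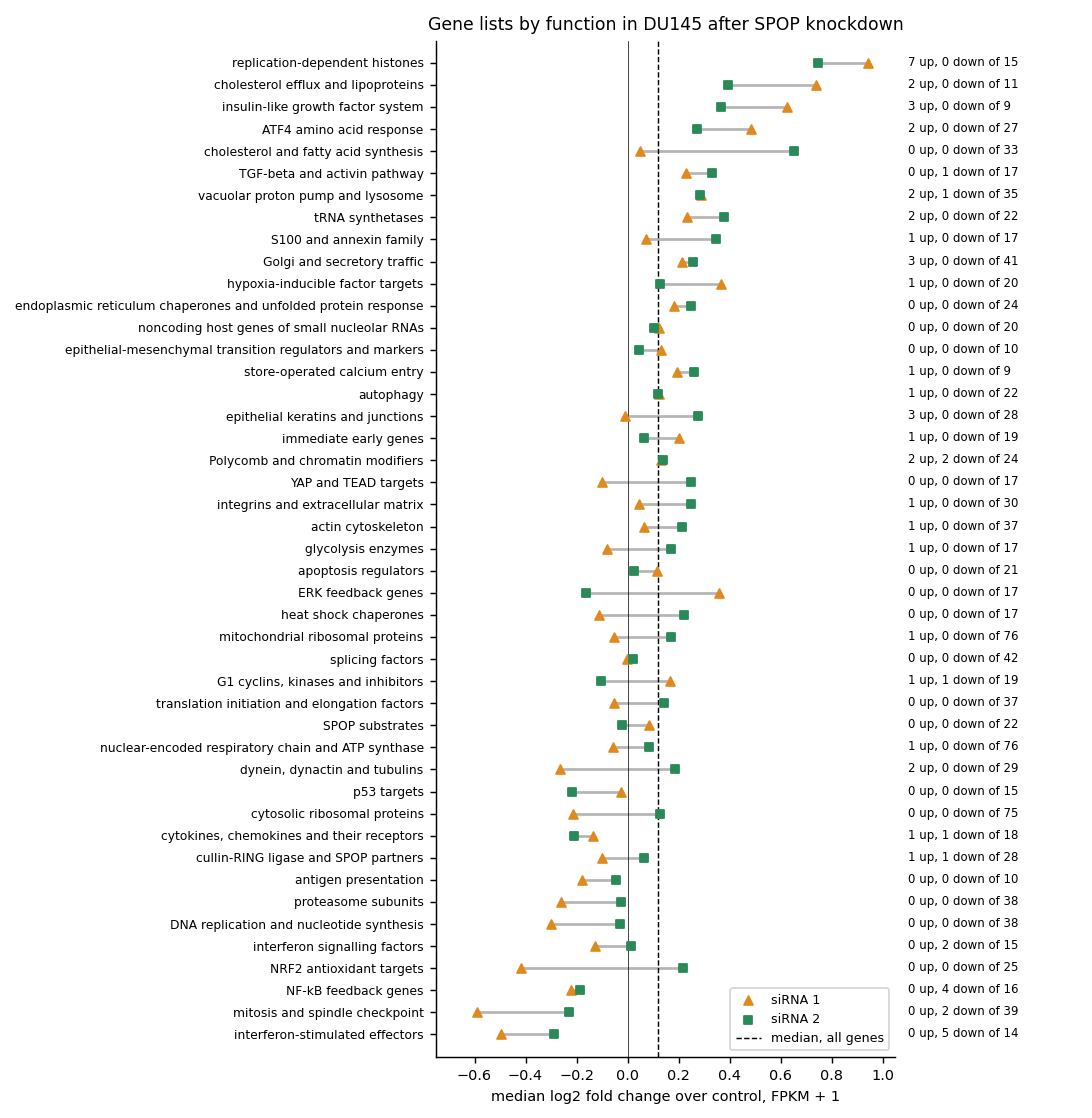
Median log2 fold change over the control of FPKM + 1 for each list of genes, with triangles for si1, squares for si2 and a dashed line at the median of all genes (0.12). The counts on the right give members past 1.5-fold with both siRNAs, and histones lie farthest to the right and interferon effectors at the bottom.

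The share of rises grew with the GC content of the transcript, and the share of falls showed no such order. Genes that rose had a median GC content of 55.6% and genes that fell 52.3%, against 51.3% for all.

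**Figure D5:**
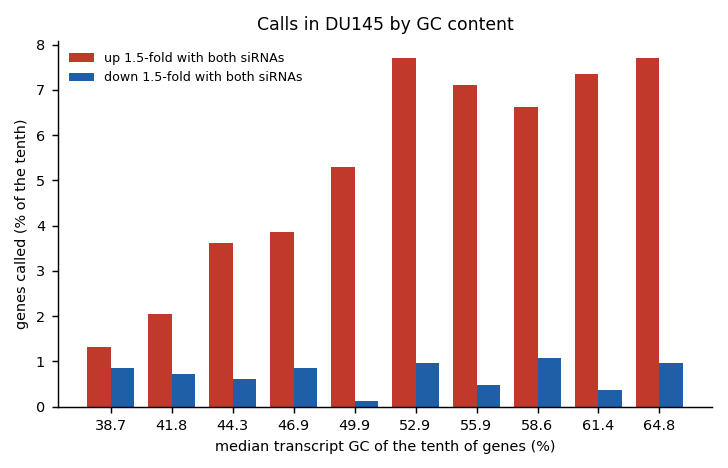
Share of genes that rose (red) or fell (blue) 1.5-fold with both siRNAs, in percent, in 10 groups of equal size ordered by transcript GC content, with the median GC content of each group on the horizontal axis. Rises went from 1.32% in the lowest group to 7.70% in the highest, and falls stayed between 0.120% and 1.08%.

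The same 8664 genes were read in 769-P, whose control is another library and whose siRNAs carry the same numbers. There 295 rose (3.4%) and 281 fell (3.24%). Of the 458 DU145 rises 90 also rose in 769-P (19.7%) and 3 fell, and of the 60 DU145 falls 21 also fell (35.0%) and 0 rose. Counting sign alone, 67.0% of the DU145 rises were above the 769-P control with both siRNAs, against 32.4% of all genes, and 76.7% of the falls were below it, against 39.9%.

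Of the 5 interferon effectors that fell in DU145, 4 also fell in 769-P, IFI6, IFIT3, ISG15 and OAS3, and MX1 had at most 0.404 FPKM there. In 769-P 10 of the 14 effectors fell, with a median of -1.74 beside -0.37 in DU145. IFI6 had 134 FPKM in the 769-P control, 3.50 with si1 and 4.16 with si2, and its change was 2.41 smaller in DU145 on the log2 scale, with an adjusted p from limma of 1 without and 0.00383 with the block. TPM4 rose from 88.9 to 441 and 414 FPKM there and HABP4 from 7.85 to 31.9 and 23.8. Other large rises of DU145 had no counterpart in level, since F13A1 had at most 0.289 FPKM in 769-P and CXCR4 was listed at 0 in all its libraries. In the limma test of the difference between lines 0 genes passed, with 152 at an unadjusted p under 0.05, and with the block 2 genes passed (0.0231%, both positive), IFI6 among them.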

How the data were processed

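RNA-Seq libraries of polyadenylated RNA were sequenced by the authors, who used TopHat2 on the hg19 genome after quality trimming and deposited FPKM values of genes from Cufflinks. FastQC and cutadapt are also named in their processing notes. Versions and annotation are not given in the sources used here, and the labels and the study's methods name different library kits. The methods also state that biological replicates were sequenced, while the labels give 1 library for each siRNA and control of a line. Repeated symbols were summed, and symbols starting MIR, SNORA, SNORD or SCARNA (1908) were left out. Values were put on the log2 scale with a pseudocount of 1, and genes with 5 FPKM or more in a DU145 library were kept. Since FPKM keeps no counts, count models were not used.

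A gene was called when both siRNAs passed 1.5-fold in the same direction. The limma 3.58.1 fit in R 4.3.3 took 6 libraries in 4 groups, with a trend and Benjamini-Hochberg adjustment. It was also run on simulated data, and that outcome is not reported here. Without a block the p-values measure the spread between the siRNA libraries of each line. The siRNA numbers were taken to mark the same reagents in both lines, which the labels do not state. The differences of siRNA 2 from siRNA 1 correlated at 0.43 between lines over 8664 genes. The fit with the number as a block was therefore added, and its p-values rest on that reading of the labels. They measure how far the difference between siRNAs departed from 1 line to the other. A gap between siRNAs that both lines share does not count in them. Python 3.11.15 with pandas 2.3.3 handled tables. Positions are GENCODE GRCh37. Promoters are RefSeq GRCh38.p14 and matched 7132 genes. Symbols follow the files.

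The genes named are SPOP, the 15 largest changes each way by the smaller siRNA change, up to 5 called members each way and the 2 most abundant members of each list, siRNA-opposed genes, the study's substrates and the markers. The members and lists were chosen with earlier results of these data known. Alternatives were a pseudocount of 0.1, median centring, other filters, the mean fold, each siRNA alone, olfactory background subtracted and, added after the values were seen, removal of the GC trend and keeping of merged small RNA symbols. Genes of the mitochondrial genome were not analysed here, and results of some genes that the naming rule covers are not reported here.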

Additional observations from a re-analysis of the deposited data

Results flagged for a closer look

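Among the called genes given above, 6 moved one way with both siRNAs in DU145 and the opposite way with both in 769-P. NUPR1 had 3.31 FPKM in the DU145 control, 12.5 with si1 and 21.5 with si2, and the 769-P libraries had, in the same order, 1.51, 0.565 and 0.427 FPKM. Its change in DU145 exceeded that in 769-P by 2.77 on the log2 scale, with a standard error of 0.55. Differences of the same kind were 2.68 for PSPN, 1.97 for F13A1, 1.88 for APOE, 1.19 for EPAS1 and -1.97 for the pseudogene HNRNPA1P33. In 769-P the first 5 were under 2 FPKM in every library, and HNRNPA1P33 had 3.28, 6.60 and 3.45 FPKM. None of these differences passed the limma test. With the siRNA number as a block the adjusted p from limma was 0.0575 for NUPR1 and at least 0.119 for the other 5. NUPR1 was 1 of 3 genes past 1.5-fold in both lines in opposite directions, with IFITM10 (8.18, 14.1 and 16.1 FPKM in DU145) and ZNF678 (1.98, 6.01 and 6.73 FPKM in DU145). In 769-P these 2 were low, with 2.59, 0.622 and 0.938 FPKM for IFITM10 and 1.94, 0.599 and 0.627 for ZNF678. NUPR1 and ZNF678 were described through the siRNA libraries alone, so a rise in DU145 was a condition of their being described.

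Small RNA symbols were outside the comparisons. Of 114 with 5 FPKM or more in a DU145 library 4 rose and 19 fell by the 1.5-fold rule. Among the 8664 genes described 5.29% rose and 0.693% fell. How many of the 19 were above 5 FPKM in the control alone was not counted. Short genes can reach a high FPKM from few fragments, and the number of fragments is unknown.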

How the results depend on the processing

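No named gene past 1.5-fold with both siRNAs turned its direction under any alternative run, but this was largely fixed in advance. Such a gene had moved at least 1.5-fold the same way with each siRNA. Leaving 1 siRNA out, averaging both or changing the filter or pseudocount therefore cannot turn it. Median centring shifted values by only 0.10 with si1 and 0.16 with si2. Named genes that were not called could turn, as PTGES, CLDN11 and CCNE1 did between the siRNAs. Against 458 rises and 60 falls at 1.5-fold and 60 and 11 at 2-fold, median centring gave 242 and 144 at 1.5-fold and 37 and 17 at 2-fold, and removal of the GC trend, chosen after the values were seen, gave 213 and 142 and then 33 and 17. With the mean fold of the siRNAs in place of agreement the counts were 849 and 192 at 1.5-fold and 147 and 27 at 2-fold, and 32 lists in place of 17 held at least 2 called members. Falls also moved with the filter, to 192 at 1.5-fold and 62 at 2-fold with a minimum of 1 FPKM, to 35 and 6 with 10 FPKM and to 475 and 62 without one. The 2-fold rises were 110 with a pseudocount of 0.1 and 100 with the olfactory mean subtracted. With 1 siRNA left out the rises ranged from 1051 to 1139 at 1.5-fold and from 213 to 259 at 2-fold, the falls from 229 to 589 and from 38 to 147, and the lists from 33 to 38. Medians changed sign between the siRNAs for interferon signalling factors (0.012 without si1 and -0.13 without si2) and for epithelial keratins and junctions (0.28 and -0.0088). Of the named genes 20 lost their call after GC removal, 17 after centring and 3 with the olfactory mean subtracted.

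Limma called 0 genes up and 0 down in DU145. The block of paired siRNA numbers gave 90 up and 21 down, and 2 up for the difference between lines, on 1 residual degree of freedom. Without the filter 98 rose and 1064 fell, and 151 and 1008 passed for the difference, a fit that takes in genes near 0. DU145 libraries alone gave 1 fall. Without 1 siRNA the fit gave 2 to 4 rises, 0 to 1 falls and 1 to 2 higher differences, with the lone library assumed to vary like the other groups. The adjusted p of SPOP was 0.00312 with the block and 0.0169 without the filter, against 0.309. Rises shared with 769-P went from 90 to 144 with a pseudocount of 0.1, and ranged from 111 to 185 with a 769-P siRNA left out. The cause of these shifts was not tested.

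With 1 control library a change in DU145 cannot be told apart from a feature of that library. FPKM gives no number of reads, so the precision of low values is unknown. That the control was the deepest of the 3 libraries was judged only from the steps between low values. The fold rule has no error rate.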

Other observations

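Other motifs fixed with the ISRE were counted in the same 300-base promoters. Shares in the genes that rose or fell are given beside those of described genes. The ATF4 element TGATGNAA was held by 2.72% of the genes that rose against 2.55% of described genes, the AP-1 site TGANTCA by 7.61% against 6.72% and the E2F site TTTNGCGC by 2.72% against 3.73%. The sterol element TCACNCCAC was held by 2.72% against 1.47%, which is 10 of 368 genes. Among the genes that fell 4 of 46 held the ATF4 element (8.70%) and 12 of 46 held the antioxidant response element TGACNNNGC (26.1%, against 19.9% of described genes). Of the 4, CDC25C, IFIT3 and MX1 were above 5 FPKM in the control alone, which fixed their direction. So were CDC25C, IFIT3 and SPOP among the 12. The antioxidant element and the AP-1 site can overlap, as they did in the promoter of LUCAT1. No test was run on these shares.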
